A study of Mus musculus with 8 samples.

Results

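A set of 8 genes that mark cortical interneurons born in the caudal ganglionic eminence (CGE) was followed in maps of H3K27ac, a histone mark carried by promoters and enhancers in use. They were Nr2f1, Nr2f2, Prox1, Sp8, Htr3a, Reln, Ndnf and Npas3, 8 of 21631 protein-coding genes on chromosomes 1 to 19 and X. Every peak overlapping a gene's span in the mm10 mouse build, or the 50 kb to each side of it, was assigned to that gene. Peaks of all libraries that overlapped by at least 1 bp were also merged into regions. The 8 windows held 133 merged regions, of 83091 within 50 kb of the genes tested.

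The series held 8 libraries in 4 groups of 2, from neurons of C57/BL6 mouse embryos, for which the labels name no engineered allele. The groups were CTX KCl, CTX unstimulated, MGE KCl and MGE unstimulated, where CTX stands for cortical cultures and MGE is the usual name of the medial ganglionic eminence. All 4 groups, controls included, were silenced overnight from day 6 in vitro with 1 µM tetrodotoxin, which stops action potentials, and 100 µM D-AP5, which blocks NMDA-type glutamate receptors. On day 7 the KCl groups received 55 mM KCl for 2 h, which depolarises neurons, and the unstimulated groups did not. Every value is an average over the mixed cells of a culture. The labels gave embryonic day 14 in the CTX titles but day 16 as the source of all libraries, and named cortical neurons as the cell type for the MGE libraries too. The labels number 2 biological replicates per group and do not say whether these came from separate cultures, so a p-value reflects the spread of these libraries, some of which may be technical.

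Cortical interneurons, which release the inhibitory transmitter GABA, arise outside the cortex and migrate into it. The medial eminence yields mainly the Pvalb and Sst classes, and the caudal eminence mainly the Vip, Lamp5 and Ndnf classes, most of which carry the serotonin receptor Htr3a. Neither culture was labelled as coming from the caudal eminence, but embryonic cortex contains interneurons of both origins that have migrated in. Several of the 8 genes are not specific to CGE cells: Nr2f1 acts in cortical progenitors, Reln is made by Cajal-Retzius cells and by some Sst interneurons, and Npas3 is used by several neural cell types. With bulk chromatin, fewer cells of a type and less acetylation per cell cannot be told apart.

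Peak lists held 36035 to 66827 peaks and 21.1 to 44.7 Mb of called sequence, and read depth is unknown. The main measure used below is the scaled called length: base pairs of a window inside peaks, per Mb called in that library. Over all 17323 genes tested, the median log2 difference of MGE minus CTX was 0.10, and it became -0.34 without scaling and -0.13 when every list was reduced to the same number of called bases. Genes past the threshold numbered 2485 higher in MGE and 2508 higher in CTX on the scaled measure, 290 and 2439 unscaled, and 1576 and 2350 with equal bases. Some defining genes of the labelled cultures were called in one culture alone, and others were not. Windows of Nkx2-1, a medial eminence factor, held no peak in any CTX library, and those of Neurod6 and Emx1, genes of cortical glutamatergic neurons and their progenitors, held none in any MGE library. Chosen after their values were seen, Satb1, a factor of MGE interneurons, was higher in CTX (-0.97, limma, adjusted p = 0.00017) and Cux2, of upper-layer cortical neurons, higher in MGE (0.79, 0.00011), and Slc17a7, Neurod2, Sox6 and Pvalb did not pass.

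Promoter sequences of 6 of the 8 genes were in the RefSeq table for GRCm38.p6, the assembly of mm10 coordinates, which lists 10 starts for them. The 250 bases before a start are printed for 6 starts that stand for the patterns at gene starts: a peak within 2 kb in every library (Reln, Npas3 and Nr2f1), in the CTX libraries and the MGE KCl libraries (Prox1), in CTX libraries (Sp8), and in none (Nr2f2). Each runs 5′ to 3′ along the gene's strand. Capitals mark matches on either strand to the GC box GGGCGG, the homeobox motif TAATTA or the E-box CAGCTG.
Reln, chr5:22344706-22344955, minus strand: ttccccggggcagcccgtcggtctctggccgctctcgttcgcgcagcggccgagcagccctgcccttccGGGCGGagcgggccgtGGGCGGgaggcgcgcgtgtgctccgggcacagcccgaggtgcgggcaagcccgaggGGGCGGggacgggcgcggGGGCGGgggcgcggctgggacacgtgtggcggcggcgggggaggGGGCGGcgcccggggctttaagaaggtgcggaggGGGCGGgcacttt
Npas3, chr12:53248182-53248431, plus strand: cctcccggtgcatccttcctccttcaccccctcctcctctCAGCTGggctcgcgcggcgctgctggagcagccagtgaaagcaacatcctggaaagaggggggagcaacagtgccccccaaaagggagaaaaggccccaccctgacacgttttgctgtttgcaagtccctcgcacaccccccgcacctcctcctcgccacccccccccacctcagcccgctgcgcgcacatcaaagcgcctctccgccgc
Nr2f1 upstream start, chr13:78198874-78199123, minus strand: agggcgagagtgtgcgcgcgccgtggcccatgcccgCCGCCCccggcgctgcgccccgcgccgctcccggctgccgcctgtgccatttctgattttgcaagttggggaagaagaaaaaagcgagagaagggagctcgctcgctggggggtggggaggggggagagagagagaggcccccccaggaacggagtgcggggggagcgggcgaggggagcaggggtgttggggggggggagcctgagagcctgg
Prox1 upstream start, chr1:190170828-190171077, minus strand: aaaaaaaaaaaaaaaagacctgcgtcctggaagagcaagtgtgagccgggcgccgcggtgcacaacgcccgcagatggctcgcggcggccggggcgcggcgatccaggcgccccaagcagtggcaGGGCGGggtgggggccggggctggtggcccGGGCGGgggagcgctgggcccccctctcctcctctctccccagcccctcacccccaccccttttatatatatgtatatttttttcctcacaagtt
Sp8 start 3, chr12:118847309-118847558, plus strand: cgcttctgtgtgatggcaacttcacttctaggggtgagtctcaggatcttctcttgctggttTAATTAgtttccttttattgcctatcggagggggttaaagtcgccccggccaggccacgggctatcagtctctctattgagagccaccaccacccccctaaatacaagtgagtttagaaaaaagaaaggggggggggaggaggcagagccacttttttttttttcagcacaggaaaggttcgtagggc
Nr2f2, chr7:70366747-70366996, minus strand: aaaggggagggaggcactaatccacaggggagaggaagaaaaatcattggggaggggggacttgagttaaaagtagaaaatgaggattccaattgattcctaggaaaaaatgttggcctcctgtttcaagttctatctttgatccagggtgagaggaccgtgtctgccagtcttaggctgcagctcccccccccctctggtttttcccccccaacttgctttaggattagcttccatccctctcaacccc

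The Reln promoter held 6 GC boxes and was 80% G and C, at the 98.9th percentile of 32851 promoters in the table, whose median was 52.4%. GC boxes stood in 32.7% of all those promoters, TAATTA in 4.84% and CAGCTG in 13%. The Nr2f1 upstream start had 1 GC box and 72.0% G and C. Before the Prox1 upstream start lay 2 GC boxes, before start 3 of Sp8 1 TAATTA and before Npas3 1 CAGCTG. None of these was found before Nr2f2, the single one of the 6 genes with no peak within 2 kb of a listed start in any library. They were also absent before start 2 of Nr2f1 and start 1 of Sp8, which are not printed. Those starts had a peak within 2 kb in 8 and 4 libraries. The activity-related motifs TGANTCA (AP-1, in 6.75% of promoters), TGACGTCA (CRE, 1.55%) and TGACG (the core of the CRE, 17.8%, which the full CRE contains) were in none of the 10 promoters. AGGTCA, a motif of nuclear receptors (14%), was found once, before start 2 of Sp8. A match of letters is a description, and no match says only that these letters are not in the window.

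The share of a window in peaks differed widely between the loci. It relates called length to window size, which ran from 106 kb at Sp8 to 924 kb at Npas3, and does not measure peak strength. It is not scaled, so its means and SDs also carry the differing sizes of the peak lists. By this share Nr2f1 was covered most, with a mean over the 8 libraries of 5.23% in peaks. Htr3a at 1.63%, Sp8 at 1.59%, Nr2f2 at 1.27%, Npas3 at 1.20% and Reln at 1.08% followed. Prox1 at 0.581% and Ndnf at 0.367% were lowest. The SD over the 8 libraries was 2.68 percentage points at Nr2f1 and 0.587 to 1.82 at the others. These SDs span both cultures and treatments, and the genes were not tested against each other, so the order is a description. The order was not the same in each culture. In CTX Sp8 came second at 3.02% and Reln was at 0.642%, whereas in MGE Reln came second at 1.51% and Sp8 was last at 0.173%. Nr2f1, Reln and Npas3 had at least 1 peak in all 8 libraries, Nr2f2, Prox1 and Htr3a in 7, Sp8 in 5 and Ndnf in 4. Peaks numbered 160 at Npas3 and 96 at Reln, both very long genes, against 8 at Ndnf.

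**Figure D1:**
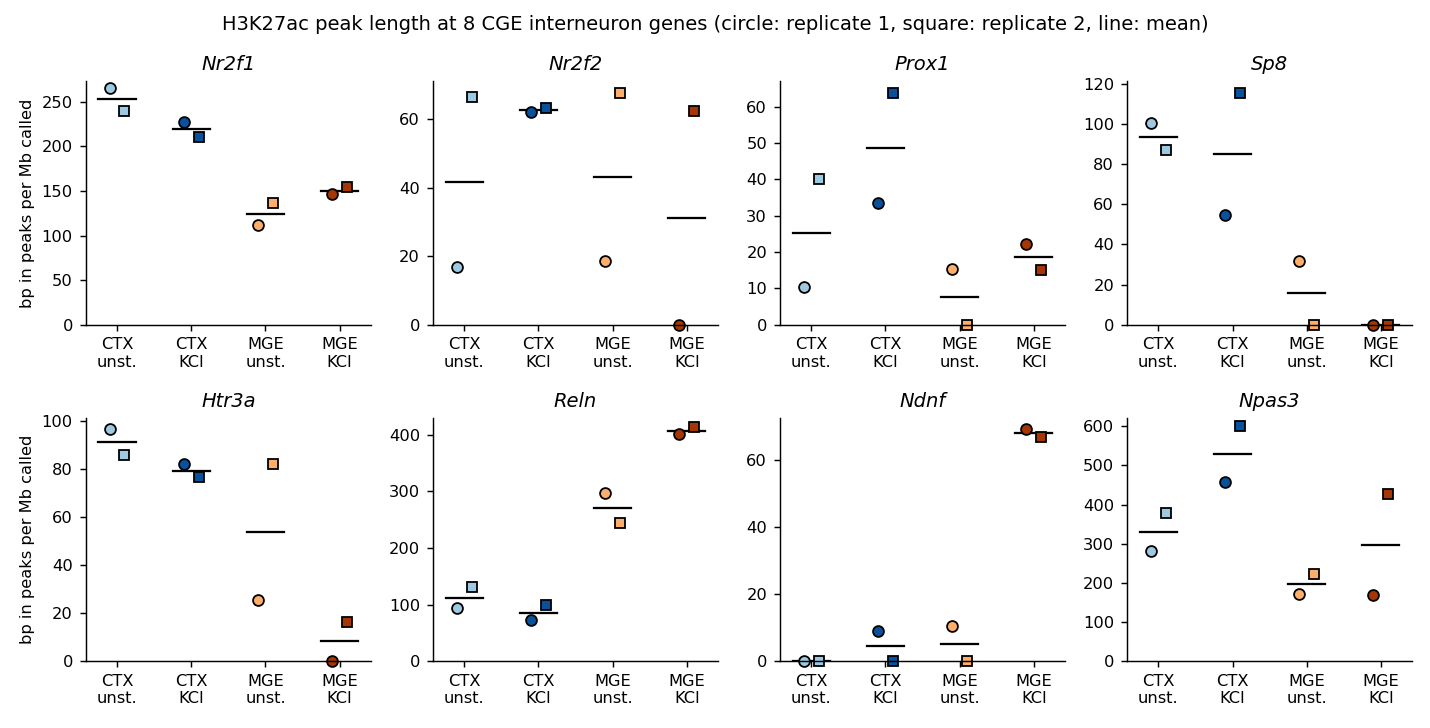
Scaled called length (bp in peaks per Mb called) of each gene's window, with 1 point per library and the mean of each group as a line. Reln lay between 244 and 413 in MGE libraries and between 72.2 and 132 in CTX libraries, Nr2f1 and Sp8 were higher in every CTX library than in any MGE library, and Ndnf was high in the 2 MGE KCl libraries.

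The comparison of MGE with CTX cultures, over both treatments, divided the 8 genes. Reln and Ndnf had more called sequence in MGE, and Sp8, Htr3a, Nr2f1 and Prox1 had more in CTX, while Npas3 and Nr2f2 did not pass the test. Thus 2 of 8 were higher in MGE and 4 of 8 higher in CTX, against 14.3% and 14.5% of all genes tested (limma with Benjamini-Hochberg adjustment over 17323 genes, adjusted p under 0.05). The median log2 difference of the 8 genes was -0.78, beside 0.10 for all genes tested. All 8 kept their direction unscaled and with equal called bases. In the exact permutation test, whose smallest two-sided p is 0.0286 with 4 libraries against 4, no gene of the 17323 passed after adjustment, and the lowest adjusted p of the 8 genes was 0.124.

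**Figure D2:**
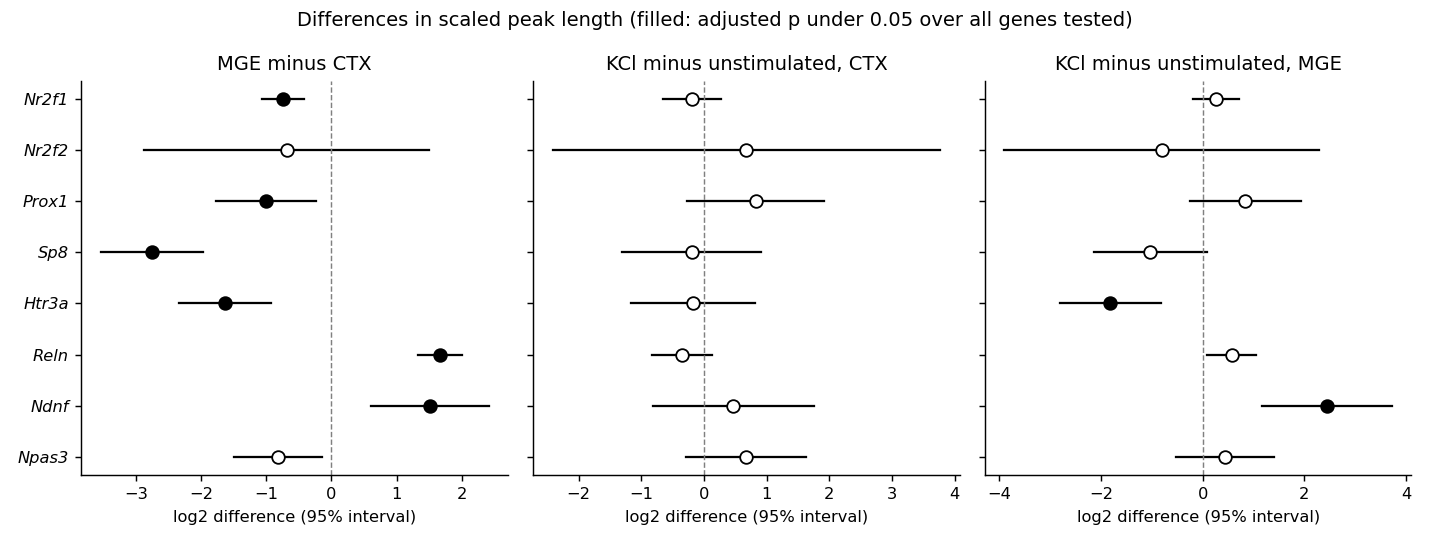
Log2 differences of scaled called length with their 95% intervals from limma, for 3 comparisons. Filled points passed an adjusted p of 0.05: 6 genes between cultures, none with KCl in CTX, and Ndnf and Htr3a with KCl in MGE.

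Among the transcription factors, Sp8, a zinc finger factor of CGE and olfactory bulb interneurons, showed the widest gap. Its scaled called length in CTX cultures was 54.7 and 116 bp per Mb with KCl (replicates 1 and 2) and 100.5 and 86.8 without. It was 31.9 in MGE unstimulated replicate 1 and 0 in the other 3 MGE libraries. All 4 CTX libraries were above all 4 MGE libraries, as at Nr2f1, so this held for 2 of 8 genes, against 11.4% of all genes tested. The mean was 89.4 ± 26.0 in CTX and 7.98 ± 15.96 in MGE (SD, n = 4 each), a log2 difference of -2.75 ± 0.38 (SE, limma, adjusted p = 8.4e-06), on the scale log2(value + 10). The call was lost with windows of 100 kb to each side (adjusted p = 0.062) and with peaks of −log10 q of at least 5 (0.27).

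At Sp8, 3 merged regions were called in all 4 CTX libraries and in no MGE library. One, chr12:118847440-118848781, covered the start listed as number 3. The peaks of CTX KCl replicate 2 and CTX unstimulated replicate 2 lay over that start, and those of the other CTX libraries within 2 kb. Downstream of the gene were chr12:118853079-118853930, 0.501 kb from its end, and chr12:118854413-118855407, 1.84 kb from it. These peaks were low in fold enrichment, with a highest −log10 q of 4.18 to 7.74 in the CTX libraries. By the authors' deposited fold enrichment the strongest peak at Sp8 in a CTX library was 2.07 to 2.36, within the lowest 5.12% of that library's peaks. The single MGE peak lay 9.12 kb before the gene, at chr12:118836437-118837171, where no CTX library had one.

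Nr2f1 (COUP-TFI), an orphan nuclear receptor, was acetylated in both cultures but over less sequence in MGE. At Nr2f1 scaled called length was 228 (replicate 1) and 211 bp per Mb (replicate 2) with KCl and 266 and 240 without it in CTX cultures. In MGE cultures Nr2f1 was at 147 and 154 with KCl and at 112 and 137 without. The cultures did not overlap. Means were 236 ± 23.0 in CTX and 137 ± 18.5 in MGE (SD, n = 4 each), and MGE was lower by a log2 difference of -0.74 ± 0.16 (SE, limma, adjusted p = 0.00048). Restricting the lists to −log10 q of at least 5 ended the call (adjusted p = 0.16).

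Of the 12 regions of Nr2f1, 3 were called in all 8 libraries: one over the gene's upstream start, chr13:78197276-78199806, one 3.84 kb upstream, chr13:78202713-78204269, and one 24.7 kb beyond its other end, chr13:78162771-78164304. The last overlaps the coding gene Fam172a and the noncoding gene Gm38604, and the others overlap the noncoding gene A830082K12Rik. Another 7 were called in CTX libraries and in no MGE library, as were 42.9% of regions near all genes tested. A pair of these, chr13:78181027-78181993 and chr13:78182221-78182604, were in all 4 CTX libraries, and lie downstream of the gene, where they overlap the noncoding genes Gm38604 and 3110006O06Rik. No region of Nr2f1 was called in MGE libraries alone.

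Nr2f2 (COUP-TFII), the second nuclear receptor and a factor of the caudal eminence, differed as much within groups as between them. At Nr2f2 scaled called length was 62.0 (replicate 1) and 63.3 bp per Mb (replicate 2) with KCl and 17.0 and 66.5 without it in CTX cultures. In MGE cultures Nr2f2 was at 0 and 62.5 with KCl and at 18.6 and 67.8 without. In 3 of the 4 groups replicate 2 was the higher by far, and the ranges of the cultures overlapped almost fully. The log2 difference was -0.69 with a 95% interval of -2.88 to 1.498 (limma, adjusted p = 0.60). Without MGE KCl replicate 1 it was 0.02 (adjusted p = 0.98), and without MGE KCl replicate 2 it was -1.40 (0.00095). Its most shared regions were chr7:70350314-70351789, 0.157 kb beyond the gene's end, and chr7:70358291-70359412, inside the gene, each called in 6 libraries.

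Prox1, a homeobox factor needed by CGE interneurons, had little called sequence, most of it at its start. At Prox1 scaled called length was 33.5 (replicate 1) and 63.9 bp per Mb (replicate 2) with KCl and 10.4 and 40.2 without it in CTX cultures. In MGE cultures Prox1 was at 22.1 and 15.1 with KCl and at 15.3 and 0 without. CTX unstimulated replicate 1 lay below 3 MGE libraries, so the cultures overlapped. The means were 37.0 ± 22.0 in CTX and 13.1 ± 9.34 in MGE (SD, n = 4 each), a log2 difference of -1.003 ± 0.38 (SE, limma, adjusted p = 0.044). The call rested on single libraries: adjusted p was 0.060 without CTX KCl replicate 1, 0.27 without CTX KCl replicate 2, 0.25 without CTX unstimulated replicate 2, 0.062 without MGE KCl replicate 2 and 0.18 without MGE unstimulated replicate 2. It passed in 4 of 18 alternatives, and with equal called bases the difference was -0.49 (adjusted p = 0.42).

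The region at the Prox1 start, chr1:190169991-190170753, was called in all 4 CTX libraries and both MGE KCl libraries and in neither MGE unstimulated library. It includes part of Prox1os, a noncoding gene on the same stretch, and peaks carry no strand. In CTX KCl replicate 2 its peak had a fold enrichment of 5.08, the highest deposited for any peak at the 8 genes. Of the 8 regions of Prox1, 6 were in CTX libraries alone (42.9% of regions near all genes) and none in MGE libraries alone (21.4%). Of the 8, 4 were called in a single library.

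Npas3, a transcription factor of the bHLH-PAS family, is a gene of 824 kb with 53 regions. At Npas3 scaled called length was 458 (replicate 1) and 600 bp per Mb (replicate 2) with KCl and 280 and 379 without it in CTX cultures. In MGE cultures Npas3 was at 169 and 426 with KCl and at 172 and 223 without. MGE KCl replicate 2 stood within the CTX range and the other 3 MGE libraries below it. Means were 429 ± 135 in CTX and 248 ± 122 in MGE (SD, n = 4 each), with a log2 difference of -0.82 ± 0.29 (SE, limma, adjusted p = 0.074). The adjusted p fell under the threshold without MGE KCl replicate 2 (-1.14, 2.9e-08), and also without MGE KCl replicate 1 (-0.50, 0.022), MGE unstimulated replicate 1 (-0.73, 0.00077) or MGE unstimulated replicate 2 (-0.91, 1.8e-05). It passed in 8 of 18 alternatives.

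The regions of Npas3 at its start, chr12:53247160-53249041, and 5.00 kb into the gene, chr12:53253428-53254261, were called in all 8 libraries. Between them chr12:53251648-53252034 was in the 4 MGE libraries and absent from every CTX list. Near the far end chr12:54033316-54034506 showed the reverse, in all 4 CTX libraries and no MGE library. Of the 53 regions, 25 were in CTX libraries alone, 9 in MGE libraries alone and 19 in both, shares near those of regions at all genes (42.9% and 21.4% for CTX alone and MGE alone).

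**Figure D3:**
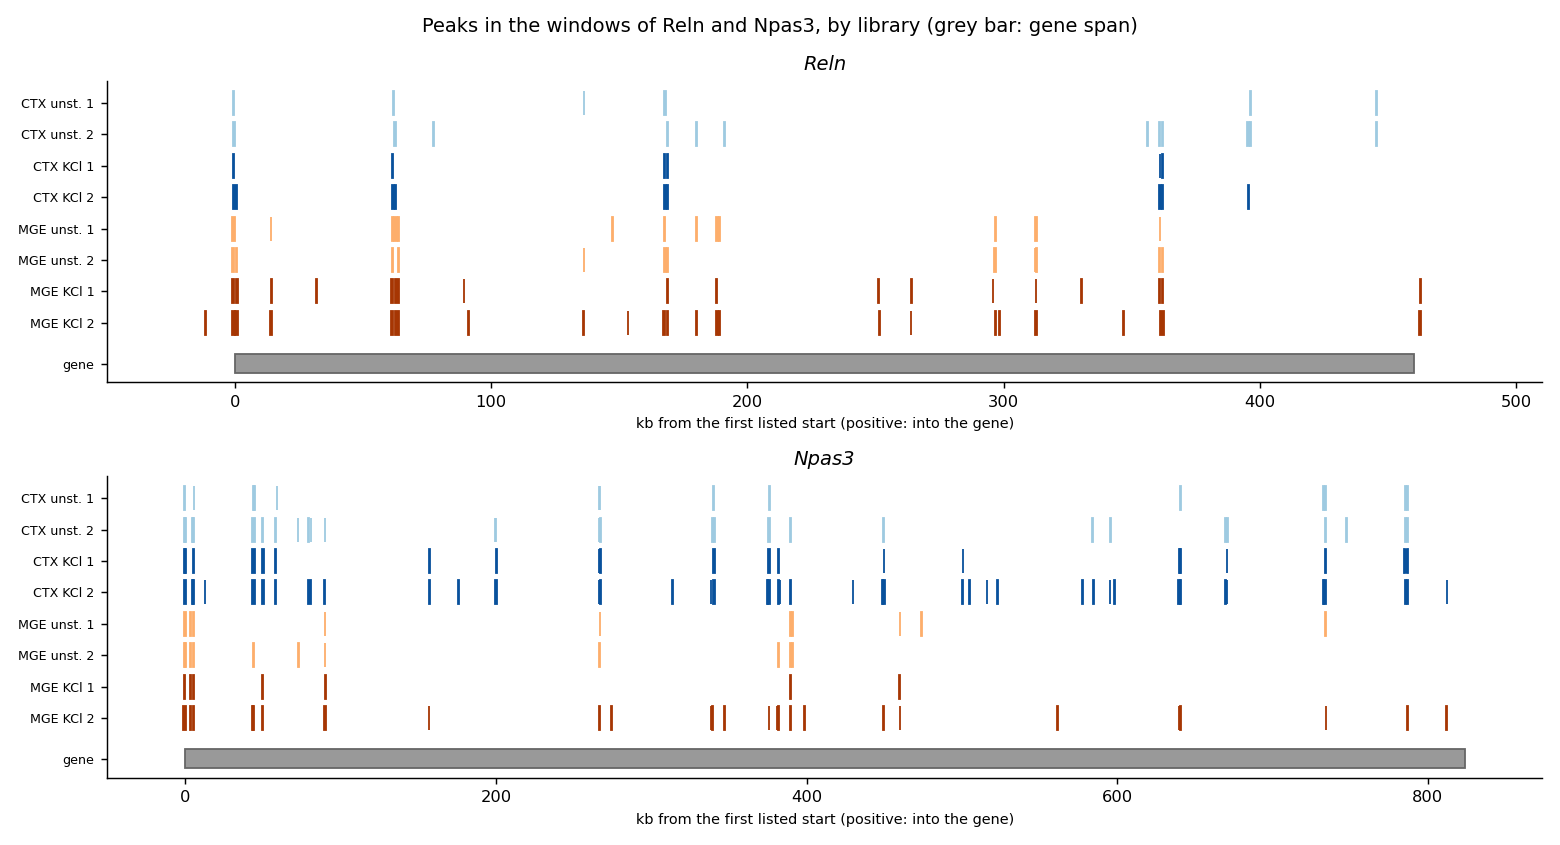
Peaks of each library along the windows of Reln and Npas3, in kb from the start. Each gene had a peak within 2 kb of its start in all 8 libraries. The window of Reln held 64 peaks over the MGE libraries and 32 over the CTX libraries.

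Reln, which encodes the secreted matrix protein reelin, was the one gene of the 8 whose MGE libraries all lay above all CTX libraries (11.6% of all genes tested). At Reln scaled called length was 72.2 (replicate 1) and 99.9 bp per Mb (replicate 2) with KCl and 93.7 and 132 without it in CTX cultures. In MGE cultures Reln was at 401 and 413 with KCl and at 298 and 244 without. On this scaled measure the lowest MGE library was well above the highest CTX library. By deposited fold enrichment the strongest peak of the window was not higher in MGE. It was 3.49 to 4.86 in CTX libraries and 3.45 to 3.75 in MGE libraries. Unscaled, CTX unstimulated replicate 2 had 5.65 kb called and MGE unstimulated replicate 2 had 5.14 kb, so the cultures overlapped. Scaled means were 99.4 ± 24.5 in CTX and 339 ± 81.6 in MGE (SD, n = 4 each), 3.41 times as much in MGE. The log2 difference was 1.67 ± 0.17 (SE, limma, adjusted p = 1.0e-09). It stayed under an adjusted p of 0.05 in 16 of 18 alternatives, the exceptions being −log10 q of at least 5 (2.29, adjusted p = 0.070) and the exact permutation test.

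The merged region over the Reln start, chr5:22343440-22345827, was called in all 8 libraries and holds the promoter printed above. Its scaled called length was 15.8 and 33.4 bp per Mb with KCl and 24.0 and 21.6 without it in CTX cultures. In MGE cultures it was 66.4 and 63.9 with KCl and 40.4 and 52.3 without. On this measure the cultures did not overlap at the start either. Unscaled they did, with 1494 bp called in CTX KCl replicate 2 and 931 bp in MGE unstimulated replicate 1. Of the 32 regions at Reln, 18 were in MGE libraries alone (21.4% of regions near all genes), 6 in CTX libraries alone (42.9%) and 8 in both, and 13 were in a single library. The one shared by the 4 MGE libraries and absent from all CTX lists was chr5:22031693-22032591, 312 kb into the gene. Other regions found in 3 MGE libraries and no CTX library lay 13.8, 188 and 296 kb from the start. Chr5:21982326-21984037, 361 kb in, and chr5:22282779-22283729, 61.0 kb in, were each called in 7 libraries, and the missing one was CTX unstimulated replicate 1 in the former and CTX unstimulated replicate 2 in the latter.

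The markers with which Reln is usually read did not move together. Of 7 genes of Cajal-Retzius cells 5 were tested: none was higher in MGE and 1, Ebf2, was higher in CTX. The median log2 difference of the 5 was 0.10, beside 0.10 for all genes tested. Ebf2, Ebf3 and Barhl2 were at 0 in all MGE libraries. Ebf3 and Barhl2, which were not tested, were also low in CTX, with means of 4.79 and 6.44 bp per Mb. Of 12 MGE interneuron genes 11 were tested, and 7 were higher in MGE, led by Maf, Lhx6, Nxph1 and Nkx2-1, and 1 higher in CTX. The summed scaled called length of that list was 1190 to 1484 in CTX and 1942 to 2027 in MGE libraries. Its part in the Reln difference was not tested.

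Ndnf, a secreted factor that marks neurogliaform cells of cortical layer 1, was called almost nowhere except in MGE KCl libraries. At Ndnf scaled called length was 9.14 (replicate 1) and 0 bp per Mb (replicate 2) with KCl and 0 in both libraries without it in CTX cultures. In MGE cultures Ndnf was at 69.2 and 66.8 with KCl and at 10.5 and 0 without. Both MGE KCl libraries stood apart from the other 6. The difference between cultures was 1.51 ± 0.45 (log2, SE, limma, adjusted p = 0.0094), and it was lost without CTX KCl replicate 2 (adjusted p = 0.071), without MGE unstimulated replicate 1 (0.052), with equal called bases (0.072), with a pseudocount of 1 (0.16) and with 100 kb flanks (0.34).

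Htr3a, which encodes a subunit of the ionotropic serotonin receptor, was called in every CTX library and unevenly in MGE. At Htr3a scaled called length was 82.1 (replicate 1) and 76.8 bp per Mb (replicate 2) with KCl and 96.7 and 85.8 without it in CTX cultures. In MGE cultures Htr3a was at 0 and 16.6 with KCl and at 25.8 and 82.3 without. MGE unstimulated replicate 2 fell within the CTX range, and the other 3 MGE libraries were below it. Means were 85.3 ± 8.42 in CTX and 31.2 ± 35.7 in MGE (SD, n = 4 each), a log2 difference of -1.63 ± 0.33 (SE, limma, adjusted p = 0.0012). It was lost with a pseudocount of 1 (adjusted p = 0.13), −log10 q of at least 5 (0.48) and 100 kb flanks (-0.30, 0.21). The last window reaches further into neighbouring genes, of which Htr3b already overlaps the 50 kb window.

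Peaks of Htr3a sat at both ends of its span. Chr9:48909880-48910916, at the upper end inside the gene, was called in all 4 CTX libraries and no MGE library. The adjoining chr9:48911233-48911797 was in all 4 CTX libraries and in MGE unstimulated replicate 1. Near the lower end chr9:48896130-48897310 was called in all 4 CTX libraries and 2 MGE libraries.

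**Figure D4:**
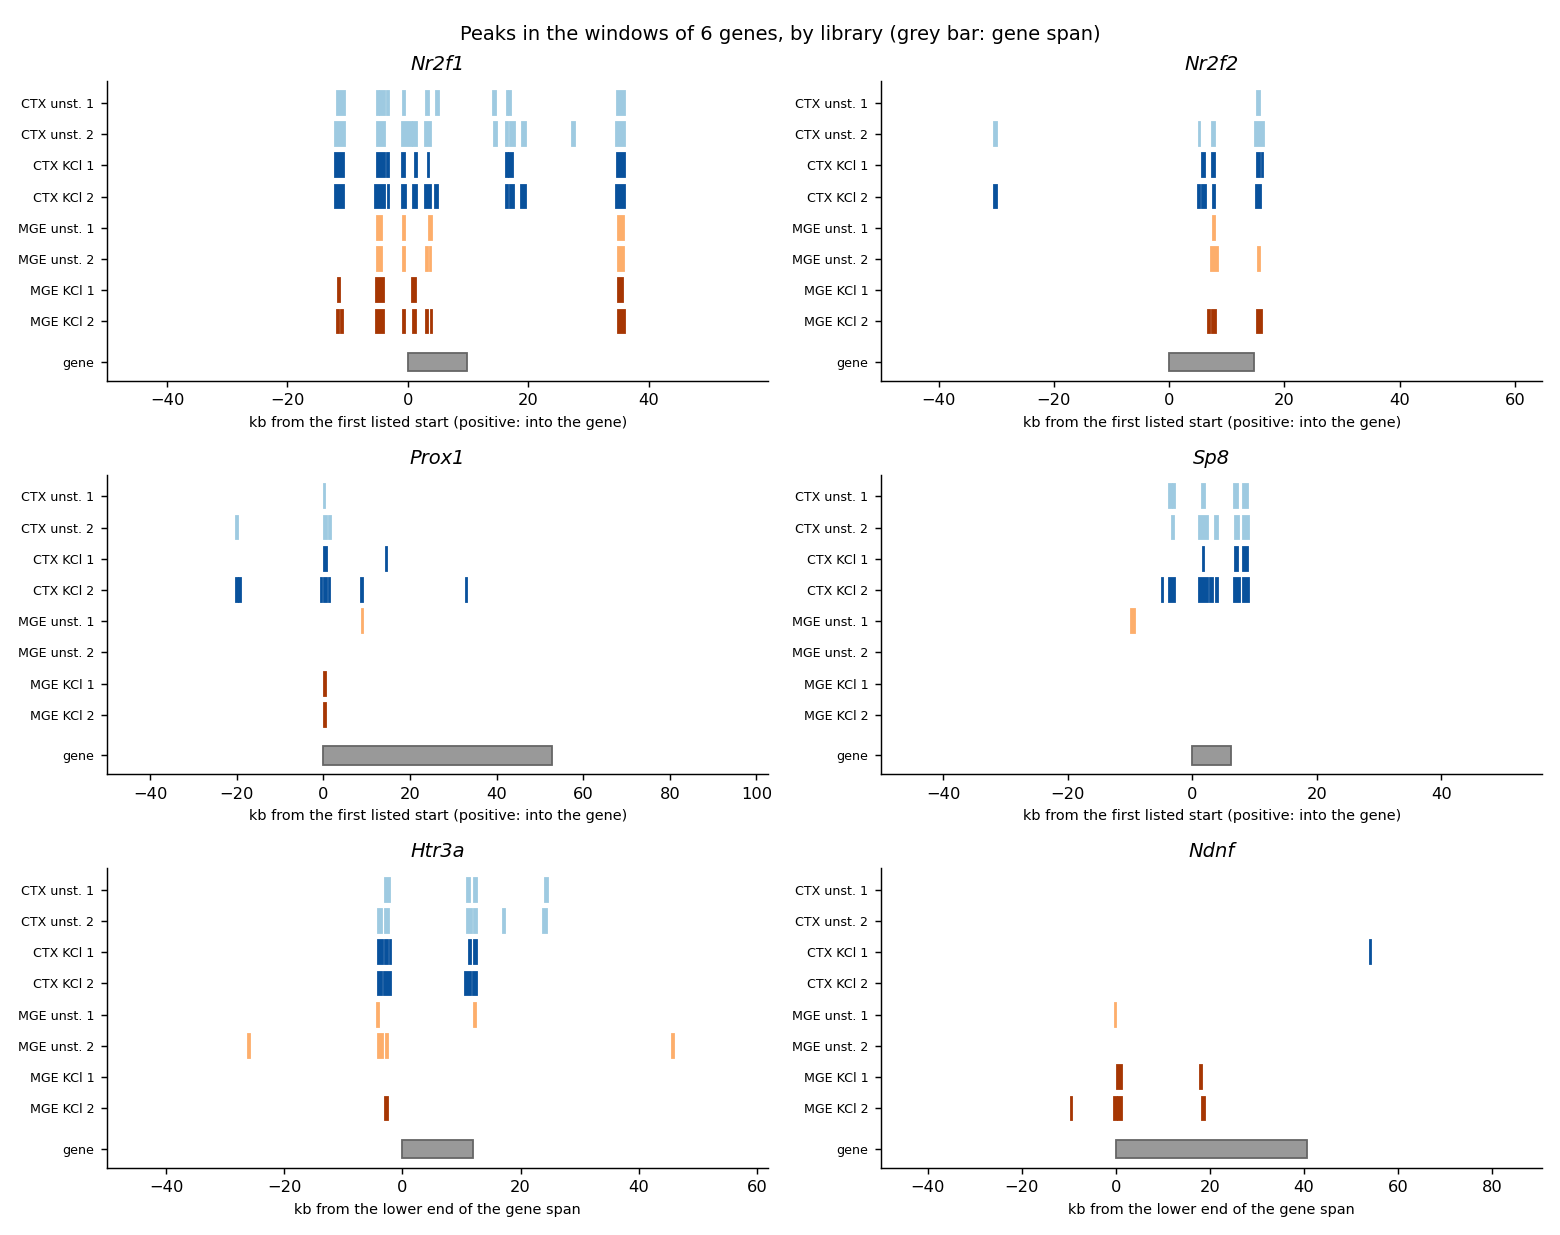
Peaks of each library along the windows of the other 6 genes, in kb from the first listed start, or from the lower end of the span for Htr3a and Ndnf. Sp8 had peaks in all 4 CTX libraries and 1 MGE library, and both MGE KCl libraries had peaks at the lower end of Ndnf.

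Counted over all 8 genes, 6 of 133 regions were called in all 8 libraries (14.4% of regions near all genes tested) and 50 in 1 library (35.2%). In CTX libraries alone there were 58 (42.9%), and in MGE libraries alone 36 (21.4%), of which 18 were at Reln. Called in all 4 CTX and no MGE library were 7 (4.54%): 3 at Sp8, 2 at Nr2f1, 1 at Htr3a and 1 at Npas3. The opposite, 4 MGE libraries and no CTX library, was seen at 2 (2.44%), in Reln and in Npas3. As shares of the 133, regions restricted to CTX libraries were 43.6% and those restricted to MGE libraries 27.1%, near the background, while those in all 8 libraries were 4.51%. The CTX share was further from the background in other settings: 51.0% against 42.3% in 500 bp bins and 73.2% of 41 regions against 44.5% at −log10 q of at least 5. Without MGE KCl replicate 2 the regions in MGE libraries alone numbered 23, and without MGE unstimulated replicate 2 those in all MGE and no CTX library numbered 5. Most regions lay within genes away from their starts: 92 of 133, mainly at Npas3 and Reln, against 9 within 2 kb of a listed start, 5 within 2 kb of an end of Htr3a or Ndnf, whose starts are not in the table, and 27 in the flanks.

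At the starts, the 6 genes fell into 4 patterns. Npas3 had a peak over its start in 6 libraries and within 2 kb in all 8. Reln and Nr2f1 had a peak within 2 kb in all 8, but over the start itself in 1. Prox1 had one in 6 libraries, Sp8 in the 4 CTX libraries and Nr2f2 in none. In all 13773 genes with listed starts that were tested, 57.4% to 69.9% had a peak within 2 kb, depending on the library.

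KCl depolarisation changed none of the 8 genes detectably in CTX cultures. In limma 0 of 8 passed, against 0.964% of all genes tested. An unadjusted p under 0.05 was found for 0 of 8, against 2096 of all 17323 genes tested. The exact permutation test cannot go below 0.333 with 2 libraries against 2 and also called 0. The largest differences were 0.83 at Prox1 (95% interval -0.27 to 1.92), 0.68 at Nr2f2 (-2.42 to 3.77) and 0.67 at Npas3 (-0.29 to 1.63). Their intervals contain no change as well as an increase of more than 1 on the log2 scale. At Npas3 both KCl libraries were above both unstimulated ones, 1 of 8 genes against 22.9% of all genes tested. Nr2f1 and Htr3a showed the reverse order, 2 of 8 against 14.8%, with differences of -0.19 and -0.18. The same treatment raised Fos, the standard marker of neuronal activation, in CTX (1.01, adjusted p = 0.023), the one call among 13 immediate early genes.

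Regions followed the same pattern in CTX cultures. Of the 133, 5 were called in both KCl libraries and neither unstimulated library (4.75% of regions near all genes), 4 of them within Npas3 and 1 within Nr2f2. Another 4 showed the reverse (2.98%): 2 at Reln, 1 at Nr2f1 and 1 at Htr3a. At Npas3 the KCl regions lay 157, 382, 500 and 639 kb from its start. MGE KCl replicate 2 also had a peak in 3 of them, all but the one at 500 kb. The region at 382 kb was called in MGE unstimulated replicate 2 as well. With a library left out fewer lists must agree, and the KCl count became 25 without CTX KCl replicate 1, 9 without CTX unstimulated replicate 1 and 15 without CTX unstimulated replicate 2, and the reverse count 13 without CTX unstimulated replicate 1.

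In MGE cultures Ndnf was higher and Htr3a lower with KCl. These were 1 of 8 in each direction, against 2.58% of all genes higher and 1.45% lower. Ndnf rose from 10.5 and 0 to 69.2 and 66.8 bp per Mb, a log2 difference of 2.45 ± 0.63 (SE, limma, adjusted p = 0.019). The groups did not overlap, but the call was lost without MGE KCl replicate 1 (adjusted p = 0.10), MGE KCl replicate 2 (0.067) or MGE unstimulated replicate 2 (0.16), unscaled (0.47), with equal called bases (0.098), with a pseudocount of 1 (0.40) and with 100 kb flanks (0.076). Its peaks were weak by significance, with −log10 q of at most 4.34, so none remained at −log10 q of at least 5.

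The Ndnf peaks gathered at the lower end of the gene. Chr6:65671798-65672880 was called in both MGE KCl libraries and no other. The neighbouring chr6:65671166-65671754, over the lower end itself and partly within the noncoding gene Gm36144, was called in MGE KCl replicate 2 and MGE unstimulated replicate 1. Another pair of regions, 17.9 and 18.4 kb into the span from that end, was called in 1 MGE KCl library each. The one CTX peak lay 13.3 kb beyond the opposite end.

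Htr3a fell from 25.8 and 82.3 to 0 and 16.6, a log2 difference of -1.82 ± 0.47 (SE, limma, adjusted p = 0.038). Both KCl libraries were below both unstimulated ones, 1 of 8 genes against 22.5% of all genes tested. The call was lost without CTX KCl replicate 1 (adjusted p = 0.098), CTX KCl replicate 2 (0.089), MGE KCl replicate 1 (0.13) or MGE unstimulated replicate 2 (0.20), and the direction turned with 100 kb flanks (0.36, adjusted p = 0.54). It was lost too when unscaled (-1.43, adjusted p = 0.61), with equal called bases (0.057), with a pseudocount of 1 (0.36), with no filter (0.053), in the exact permutation test (0.74) and at −log10 q of at least 5, where no MGE peak remained. Thus 7 of 18 alternatives kept the call.

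The other 6 genes did not pass in MGE cultures. Reln had the next smallest p: it was 298 and 244 without and 401 and 413 with KCl, a log2 difference of 0.58 ± 0.24 (SE, limma, adjusted p = 0.19). With Nr2f1 and Ndnf it made 3 of 8 genes whose KCl libraries were both above the unstimulated ones, against 22.7% of all genes tested. Sp8 had no peak with KCl and 31.9 and 0 without, a difference of -1.03 (95% interval -2.15 to 0.08), which passed without MGE unstimulated replicate 2 (-2.07, adjusted p = 0.0025). Nr2f2 passed without MGE KCl replicate 2 (-2.24, 0.0049) and Npas3 without MGE KCl replicate 1 (1.08, 0.0063).

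In MGE cultures 7 of 133 regions were called in both MGE KCl libraries and neither MGE unstimulated library (4.53% of regions near all genes). At Reln there were 3, chr5:21881839-21882513, chr5:22080583-22080940 and chr5:22093167-22093888, at distances of 462, 264 and 251 kb from its start and in no CTX library. One each was at Nr2f1, Prox1, Ndnf and Npas3. Those at Nr2f1 (chr13:78209257-78210997, 10.4 kb upstream) and at the Prox1 start were called in all 4 CTX libraries as well. The reverse was seen at 2 regions (2.02%), at Htr3a and Npas3. The KCl count became 30 without MGE KCl replicate 1 and 12 without MGE KCl replicate 2. The reverse count became 7 without MGE KCl replicate 2 or MGE unstimulated replicate 2 and 5 without MGE unstimulated replicate 1.

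The response to KCl did not differ detectably between the cultures at any of the 8 genes. The interaction test called 0 of 8 (0.3% of all genes tested). An unadjusted limma p under 0.05 was found for 1209 of all 17323 genes tested and for 3 of the 8. Those were Reln (0.93 ± 0.34, SE, limma, adjusted p = 0.39), Ndnf (1.98 ± 0.89, 0.64) and Htr3a (-1.64 ± 0.66, 0.59). Htr3a passed without MGE KCl replicate 2 (-2.34, adjusted p = 0.0057) or MGE unstimulated replicate 1 (-2.32, 0.0061), and Nr2f2 without MGE KCl replicate 2 (-2.91, 0.012).

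Other genes of CGE interneurons were as divided as the 8. Of 15 listed, 14 were tested: 4 were higher in MGE and 6 higher in CTX, with a median of -0.38. The 4 with the smallest adjusted p were Synpr, which encodes a synaptic vesicle protein (-2.45, 7.1e-11), Sncg, at 0 in all MGE libraries (-3.14, 7.0e-09), Calb2, a calcium-binding protein (-1.04, 0.00015), and Vip, a neuropeptide at 0 in all CTX libraries (2.01, 0.00051). Of these Vip alone was higher in MGE. With KCl in MGE, Synpr (2.14, 3.1e-05), Tac2 (2.81, 0.00038) and Kit (1.17, 0.024) rose and none fell. In CTX Cck fell (-2.09, 0.00017) and none rose, and Synpr was the one gene whose response differed between cultures (2.08, adjusted p = 0.012).

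**Figure D5:**
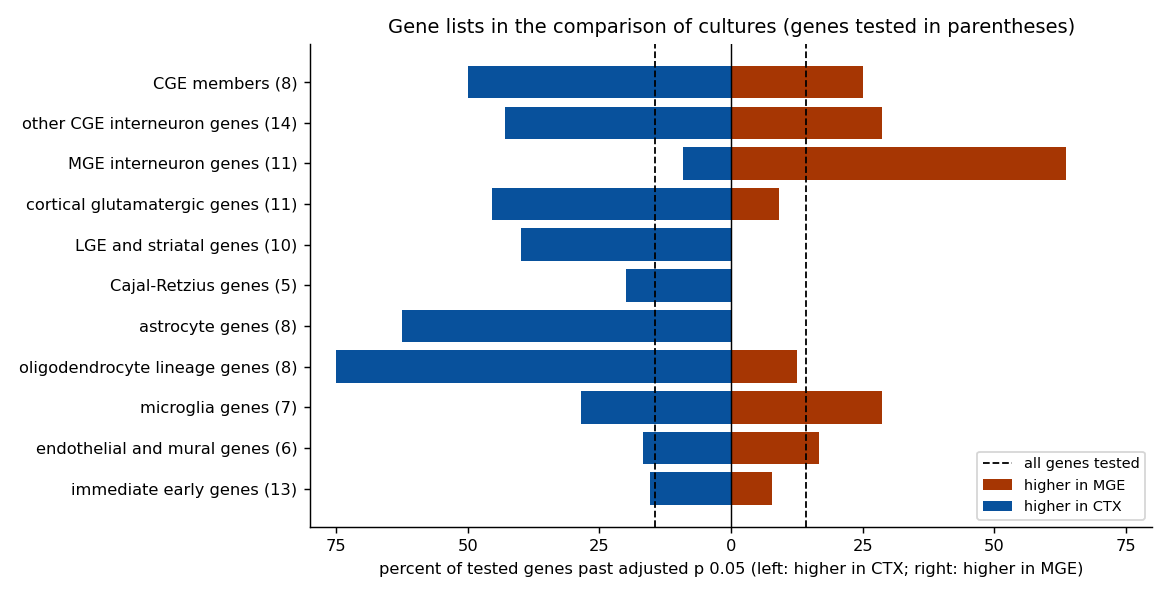
Percent of the tested genes of each reported list past an adjusted p of 0.05, to the right where higher in MGE and to the left where higher in CTX, with dashed lines for all genes tested. The 8 CGE genes and the 14 other CGE genes had calls on both sides, whereas 7 of 11 MGE interneuron genes were on the right.

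The lists of other cell types also differed between the cultures, and their part in the results above was not tested. Of 11 tested cortical glutamatergic genes 1 was higher in MGE and 5 in CTX, and the smallest adjusted p belonged to Neurod6, Emx1, Bhlhe22 (all higher in CTX) and Cux2 (higher in MGE). Neurod6, Slc17a6 and Emx1 were at 0 in all MGE libraries. Slc17a6, which was not tested, was at 0 in CTX too, except for 12.3 bp per Mb in CTX KCl replicate 2. LGE and striatal genes were higher in CTX for 4 of 10 (Meis2, Ppp1r1b, Foxp2 and Drd1) and in MGE for none. Astrocyte genes were higher in CTX for 5 of 8, and oligodendrocyte lineage genes for 6 of 8 with 1 higher in MGE. Microglia genes were split 2 and 2 of 7, and endothelial and mural genes 1 and 1 of 6. Summed scaled called length was 877 to 1021 in CTX and 232 to 633 in MGE libraries for astrocyte genes, and 1222 to 1530 and 548 to 764 for the oligodendrocyte lineage. Of 13 immediate early genes, 5 rose with KCl in MGE, led by Nr4a2, Nr4a1, Fosb and Fos.

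For each of the 8 genes, the gene elsewhere in the genome with the most similar scaled called length over the 8 libraries was found by Pearson's r. It was Acer3 for Nr2f1 (0.99), Oprm1 for Nr2f2 (0.97), Sik2 for Prox1 (0.98) and Odf3l1 for Sp8 (0.99). It was S100a5 for Htr3a (0.99), Sh3rf3 for Reln (0.98), Uggt2 for Ndnf (0.97) and Zfp36l2 for Npas3 (0.97). With 8 libraries and about as many genes compared as were tested, high values of this kind are common: 515 genes exceeded 0.9 with Nr2f1 and 29 with Nr2f2. The points share library depth and the 4 groups.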

How the data were processed

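H3K27ac peaks from 8 libraries were used as the authors deposited them: 1 list per library in broad-peak format, with a score, a fold enrichment (a linear ratio), a −log10 p-value and a −log10 q-value per peak. These belong to the peaks and served here only to describe or filter them. Per the submitters' processing notes the build was mm10, and the notes name MACS3 3.0.0a7, Bowtie2 2.3.3, deepTools 3.4.3 and cutadapt 1.18. No source used here gives their settings or says whether an input control was used. The deposited peak names contain the word unfiltered. Reads were 50 bp. Depth is unknown, and a deeper library yields more peaks, so a region missing from a list may still be acetylated.

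Computed here: for each of 21631 protein-coding genes (RefSeq spans, GRCm38.p6), base pairs in peaks over the span and 50 kb to each side, per Mb called in the library. Peaks on other chromosomes (29) were left out. Genes with a mean of at least 10 bp per Mb (17323) were tested on log2(value + 10) with limma 3.58.1 (R 4.3.3; 4 group means, trended and robust variance moderation), adjusted by Benjamini-Hochberg over all of them, after the script was tested on simulated data. A difference on this scale understates the change of low genes. Regions were merged over lists by an overlap of at least 1 bp. Alternatives were no scaling (pseudocount 300 bp), equal called bases, pseudocounts 1 and 50, no filter, flanks of 20 and 100 kb, −log10 q of at least 5, an exact permutation test, a replicate block and leaving out each library. For regions they were 500 bp bins at least 50% in peaks, −log10 q of at least 5 and leaving out each library.

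Named genes were the 8 members, of each other list at most the 4 genes with the smallest adjusted p among those past it in a comparison, and for each member the most similar gene. The members and lists were chosen with earlier results of these data known. The result of 1 further marker list is not reported here.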

Additional observations from a re-analysis of the deposited data

Results flagged for a closer look

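At Nr2f1 the KCl libraries were both below the unstimulated ones in CTX cultures and both above them in MGE cultures. These orders were seen at 14.8% and 22.7% of all genes tested. Neither KCl difference passed: -0.19 in CTX (limma, adjusted p = 0.87) and 0.26 in MGE (0.69). The difference between the responses was 0.46 on the log2 scale. It was tested as an interaction and did not pass (limma, adjusted p = 0.95, 95% interval -0.19 to 1.11). Among the regions, chr13:78209257-78210997 lay 10.4 kb upstream and was called in both MGE KCl libraries, neither MGE unstimulated library and all 4 CTX libraries.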

How the results depend on the processing

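Between cultures, the count of the 8 genes past the threshold (6) was 3 with a pseudocount of 1, 2 with 100 kb flanks, 1 with −log10 q of at least 5 and 0 in the exact permutation test. Their median (-0.78) became -1.24 unscaled, -1.15 with a pseudocount of 1 and -1.52 at −log10 q of at least 5. With KCl in MGE, the count (2) was 1 without a filter and 0 unscaled, with equal called bases, with a pseudocount of 1, with 100 kb flanks, at −log10 q of at least 5 and in the exact permutation test. Medians moved to 0.998 for KCl in CTX at −log10 q of at least 5, and, for the difference of responses, to 0.33 with equal bases, 0.27 with 100 kb flanks and -0.41 at −log10 q of at least 5. The cause was not tested. The stricter lists have fewer peaks, and Ndnf had none of them.

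The directions that turned belonged, but for Htr3a in MGE, to differences that had not passed. With 100 kb flanks the KCl difference became 0.010 at Nr2f1, 0.082 at Sp8 and 0.068 at Htr3a in CTX, and 0.81 at Sp8 and 0.36 at Htr3a in MGE. At −log10 q of at least 5 it became 1.34 at Sp8, 0.075 at Htr3a, 0.998 at Reln and -0.092 at Npas3 in CTX. With equal called bases it became -0.14 at Npas3 in MGE. The difference of responses at Prox1, near 0, was -0.10 unscaled, -0.14 with a pseudocount of 50, -0.038 with 20 kb flanks, -0.29 with 100 kb flanks and -0.66 at −log10 q of at least 5. At Sp8 it was 1.79 with equal bases and 0.73 with 100 kb flanks. With 100 kb flanks it was 0.30 at Htr3a, and at −log10 q of at least 5 it was -0.41 at Reln and 1.62 at Npas3.

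Region counts depended on the definition. In 500 bp bins there were 81 in 1 library, 98 in CTX alone, 0 in all MGE and no CTX, 8 and 2 for KCl alone and unstimulated alone in CTX, and 11 for KCl alone in MGE. At −log10 q of at least 5 these were 20, 30, 0, 2, 0 and 2, with 0 in all libraries, 5 in MGE alone, 2 in all CTX and no MGE, and 0 for unstimulated alone in MGE.

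Leaving out each library in turn, the lone library of a group being assumed to vary like the others, gave 4 to 7 genes between cultures, 0 for KCl in CTX, 1 to 2 in MGE and 0 to 2 for the difference of responses. Medians lay from -1.03 to -0.61, -0.09 to 0.17, 0.013 to 0.61 and -0.54 to 0.26. Regions in all libraries numbered 6 to 8, in 1 library 45 to 60, in CTX alone 44 to 67, in MGE alone 23 to 40, in all MGE and no CTX 2 to 5 and in all CTX and no MGE 7 to 10. KCl alone gave 5 to 25 in CTX and 7 to 30 in MGE, and unstimulated alone 4 to 13 and 2 to 7. Directions turned, with the lowest and highest values given, between cultures at Nr2f2 (-1.40 to 0.025), with KCl in CTX at Nr2f2 (-0.074 to 1.43) and Sp8 (-0.68 to 0.28), with KCl in MGE at Nr2f2 (-2.24 to 0.62) and Npas3 (-0.21 to 1.08), and in the difference of responses at Prox1 (-0.66 to 0.68), Npas3 (-0.87 to 0.41) and Sp8 (-1.87 to 0.20).

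Counts over all genes ranged over the alternatives from 0 to 6021 between cultures, 0 to 557 for KCl in CTX, 0 to 1148 for KCl in MGE and 0 to 204 for the difference of responses. The exact permutation test was not run for that difference. The labels do not say what the replicate numbers share. The correlation of replicate deviations was 0.34 between the CTX groups, 0.24 between the KCl groups, 0.25 between CTX unstimulated and MGE KCl, 0.055 between the MGE groups, -0.024 between CTX KCl and MGE unstimulated and -0.12 between the unstimulated groups. It was positive in 4 of 6 pairs of groups but not in all, so the numbers were not taken as pairing. With the replicate block, 6, 0, 2 and 0 genes passed in the 4 comparisons. Npas3 passed between cultures (-0.82, adjusted p = 0.0011) and Prox1 did not (0.071).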
